A study of Rattus norvegicus with 3 samples.

Results

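The rat kidney proximal tubule was examined for 6 glucose carriers, the sodium-coupled carriers Slc5a1 and Slc5a2 and the facilitative carriers Slc2a1, Slc2a2, Slc2a3 and Slc2a4. They were taken as every probe set whose annotation named 1 of these genes and no other, which gave 8 probe sets for 6 genes, of 31042 non-control probe sets and 14217 named genes. Slc2a3 and Slc2a4 had 2 probe sets each and the other genes 1 each. The study measured 3 preparations of proximal tubules from male Sprague-Dawley rats, 7 to 8 weeks old, on 1 Affymetrix array each. Every animal had been given 250 units of heparin before it was killed, and the tubules came from cortex digested with collagenase and spun through 42.5% Percoll. All arrays formed 1 group without a control or treated group. The labels do not say how many animals went into a preparation and whether the 3 preparations came from separate animals, so the SDs below measure the spread between these preparations, which may be partly technical.

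Glucose filtered at the glomerulus is reclaimed in the proximal tubule in 2 steps. At the brush border a sodium-coupled carrier draws glucose into the cell on the sodium gradient that the basolateral sodium pump maintains. The SLC5 carrier of the early tubule, SGLT2 (gene Slc5a2), is known as the high-capacity, low-affinity form, and SGLT1 (Slc5a1) as the high-affinity form of the late tubule that takes up what is left. Glucose then leaves through the basolateral membrane by facilitated diffusion, through GLUT2 (Slc2a2) in early and GLUT1 (Slc2a1) in late segments. GLUT3 (Slc2a3) is best known from neurons and GLUT4 (Slc2a4) as the insulin-responsive carrier of muscle and fat.

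Signals were linear probe-set intensities with array medians of 37.1, 37.4 and 34.9 on arrays 1, 2 and 3. No detection calls were used, so a background line was drawn on each array at the 95th percentile of the 6 probe sets annotated with an Olr symbol, a group of olfactory receptor genes. The line lay at 13.6 on array 1, 19.2 on array 2 and 18.7 on array 3. Because probe sets bind their targets with different affinity, a signal was read against the line and against the same probe set on other arrays. Signals of different genes were not compared as amounts of RNA. Above the line on all 3 arrays lay 5 of the 8 carrier probe sets, where 56.7% of all non-control probe sets did so; a line from 41 olfactory, vomeronasal and taste receptor probe sets together gave 5 as well, beside 56.4%. By gene, 5 of the 6 carriers had a probe set above the line, beside 69.6% of all named genes. With 1 gene of the carriers counting for so much of the total, these shares do not set the carriers apart from other genes.

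**Figure D1:**
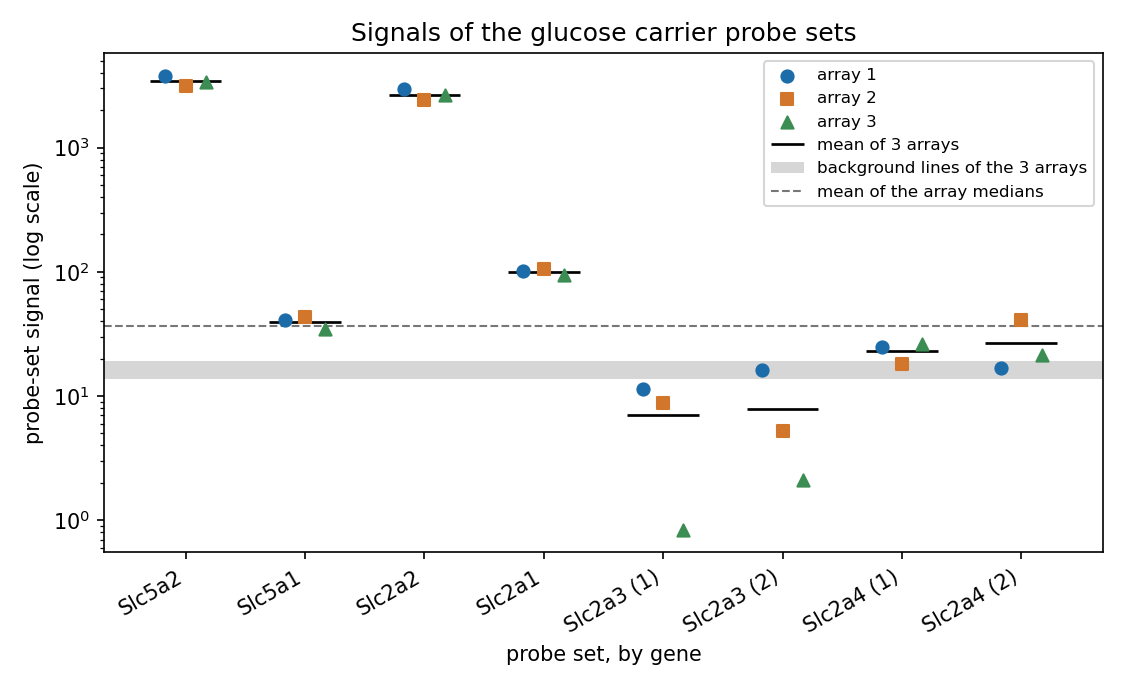
Signal of each carrier probe set (log axis) on arrays 1, 2 and 3 (points), with the mean (bar), the range of the background lines of the 3 arrays (grey band) and the mean of the array medians (dashed line); numbers in parentheses distinguish the 2 probe sets of a gene. Slc5a2 and Slc2a2 lie between 2424 and 3786 on every array, Slc2a1 lies near 100, and both Slc2a3 probe sets fall below the band on arrays 2 and 3.

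Slc5a2, the carrier of early apical uptake, had signals of 3786, 3155 and 3388 on arrays 1, 2 and 3, a mean of 3443 ± 319 (SD, n = 3; probe set 1368414_at). These were 102, 84.3 and 97.1 times the array medians, and 98.6% to 98.7% of probe sets lay at or below them. Array 1 was the highest and array 2 the lowest, by a ratio of 1.20. Slc2a2, the basolateral exit carrier of the same early segment, had signals of 2948, 2424 and 2630, a mean of 2667 ± 264 (SD, n = 3; 1387228_at). It stood at 79.4, 64.8 and 75.4 times the array medians, with 98.0% to 98.1% of probe sets at or below it. The arrays fell in the same order as for Slc5a2, and the highest exceeded the lowest by a ratio of 1.22.

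Slc5a1, the carrier of late apical uptake, had signals of 41.0, 43.1 and 34.9 on arrays 1, 2 and 3, a mean of 39.6 ± 4.25 (SD, n = 3; 1369759_at). It lay at 3.01, 2.25 and 1.87 times the background line but at only 1.10 and 1.15 times the medians of arrays 1 and 2, and 50.02% to 52.6% of probe sets lay at or below it. On array 3 its signal of 34.89 barely exceeded the median of 34.88. Slc2a1, the exit carrier of later segments and of many other cells, had signals of 101, 104 and 94.1, a mean of 99.9 ± 5.29 (SD, n = 3; 1370848_at). This was 2.70 to 2.79 times the array medians and 5.04 to 7.43 times the line. In whole tubule preparations, fewer cells of a type and less RNA per cell cannot be told apart.

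Slc2a4 was read differently by its 2 probe sets. Probe set 1367989_at gave signals of 25.02, 17.99 and 26.4 on arrays 1, 2 and 3 (mean 23.1 ± 4.52, SD, n = 3) and fell below the line of 19.2 on array 2. Probe set 1388958_a_at, whose suffix marks probes shared by transcripts of a gene, gave 16.8, 41.2 and 21.4 (mean 26.5 ± 12.99) and passed on all 3 arrays. Its margin was a ratio of 1.23 on array 1 and 1.15 on array 3. The probe sets disagreed on the arrays as well, since array 2 was the lowest for the first and the highest for the second. Slc2a4 was therefore counted above the line on 1 probe set only, and the call was lost when probe sets with a shared-transcript suffix were left out or when the array median served as the line. With the median as line, 4 of the 8 carrier probe sets remained, of 4 genes, where 45.8% of all probe sets did. The share of all named genes at that line was not counted.

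Slc2a3 did not pass on either probe set. Probe set 1387707_at gave 16.2, 5.25 and 2.11 on arrays 1, 2 and 3 (mean 7.86 ± 7.41, SD, n = 3), above the line on array 1 alone. Probe set 1372326_at gave 11.3, 8.79 and 0.841 (mean 6.98 ± 5.46), below the line on every array. Both were highest on array 1 and lowest on array 3. The highest signals of the 6 Olr probe sets were 14.0, 21.9 and 19.3 on arrays 1, 2 and 3. On array 1 the 16.2 of 1387707_at exceeded the highest, whereas every other Slc2a3 signal lay below the highest of its array. Slc2a3 was therefore not detectable above background on arrays 2 and 3 by either probe set, and its ratios between arrays were not read.

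**Figure D2:**
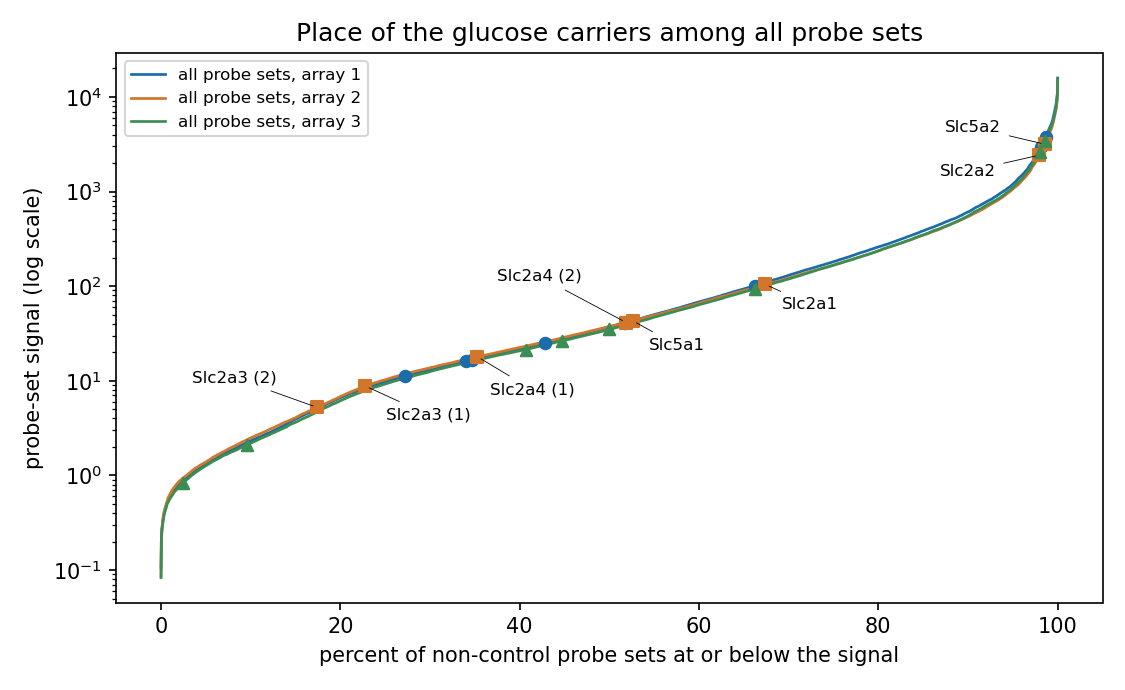
Signals of all non-control probe sets on each array in rising order (lines; log axis) against the percent of probe sets at or below each signal, with the carrier probe sets marked on each array (points). Slc5a2 and Slc2a2 sit at 98.0% to 98.7%, Slc2a1 at 66.3% to 67.4%, and Slc5a1 at 50.02% to 52.6%; Slc2a3 moves from 27.3% or 34.1% on array 1 to 2.44% or 9.59% on array 3.

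Spread between preparations was measured as the range over arrays of log2(signal + 16), centred on each array's median. None of the 8 carrier probe sets ranged by 1 log2 unit (2-fold) or more, where 5.1% of all non-control probe sets and 1.91% of those above the line did. The added 16 compresses low signals, and with an added 1 instead, 3 carrier probe sets passed 1 log2 unit, namely both of Slc2a3 and 1388958_a_at of Slc2a4. With the added 16, Slc2a1 had the smallest range of the 8, 0.06. Only 2.20% of the 1001 probe sets of nearest mean signal had a smaller one (median of those 1001, 0.34). The range of Slc2a1 was 0.09 after quantile normalization, above the 0.08 of Slc5a2, 0.13 without centring and 0.03 without array 2 or array 3. Slc5a1 ranged by 0.15, with 7.19% of its 1001 nearest below it and a median of 0.43, and by 0.05 without array 3. Slc5a2 ranged by 0.27 and Slc2a2 by 0.29, close to the medians of 0.23 and 0.24 for probe sets of similar signal.

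After centring on array medians, Slc5a2 and Slc2a2 deviated from their own means almost identically. The centred deviations were 0.12, -0.15 and 0.03 on the log2 scale for Slc5a2 and 0.13, -0.16 and 0.03 for Slc2a2, so the genes differed by at most 0.01 on any array. The same order of arrays was found in 4256 of 17602 probe sets above the line (24.2%), with a median ratio of array 1 to array 2 of 1.08, and in 844 of the 1740 with a mean signal over 1000 (48.5%), with a median ratio of 1.14. The array medians followed another order, with array 2 highest. The upper end of the arrays, where these probe sets lay, followed the same order as Slc5a2. The 99th percentiles of all probe sets were 4485, 3953 and 4219 on arrays 1, 2 and 3, and the highest signals 15826, 14313 and 15213. The part of array brightness in the pattern was not tested. Quantile normalization reduced the range of Slc5a2 to 0.08 and that of Slc2a2 to 0.09. The deviations were then 0.05, -0.03 and -0.02 for Slc5a2 and 0.04, -0.05 and 0.01 for Slc2a2, with opposite signs on array 3. With median centring, leaving out array 2 brought both ranges to 0.10. Without array 1 the ranges were 0.17 and 0.19. Among 9887 other genes above the line, 32 lay closer to Slc5a2 in their 3 deviations than Slc2a2 did, at a distance of 0.014, and 1524 (15.4%) lay within a looser distance of 0.1. The closest were Mpv17l (3326, 2777 and 2977) and Nabp2 (316, 262 and 282). For Slc2a2 the closest were Ipo5 (295, 239.97 and 262) and Tgm3 (67.0, 52.2 and 58.0), with 26 genes closer than Slc5a2 and 1399 (14.1%) within 0.1.

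**Figure D3:**
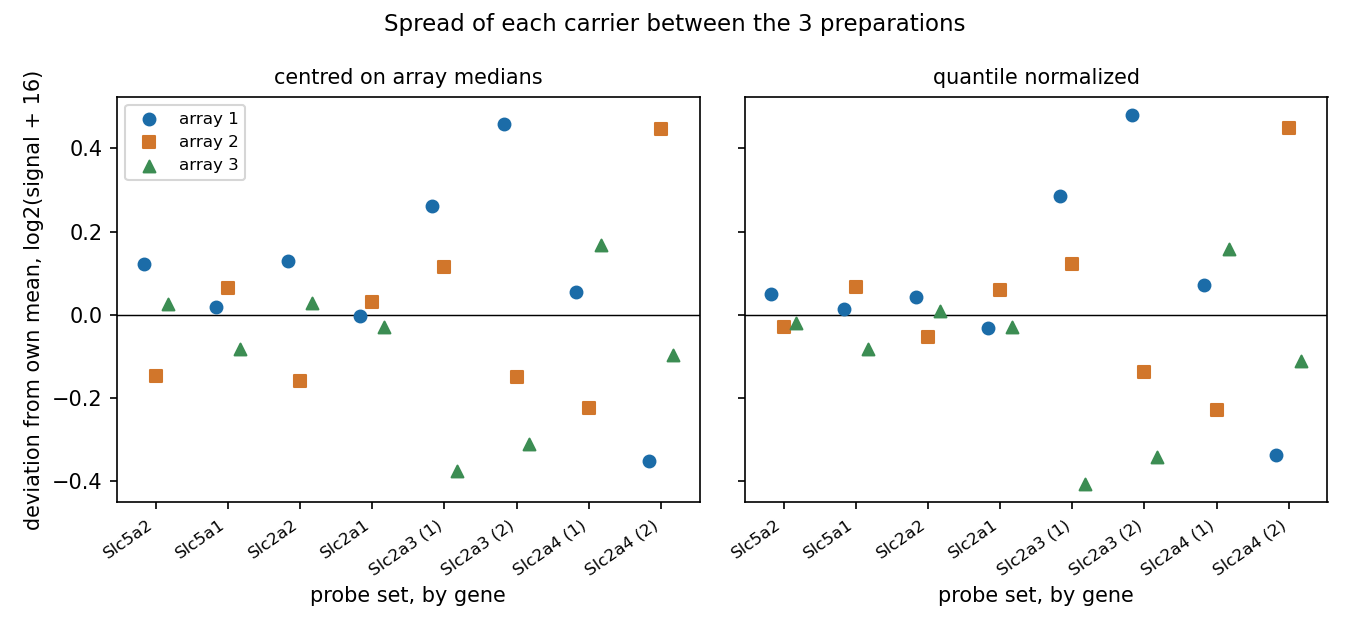
Deviation of each carrier probe set from its own mean over the 3 arrays, in log2(signal + 16), after centring on array medians (left) and after quantile normalization (right). Slc5a2 and Slc2a2 share a high array 1 and a low array 2 on the left, and their ranges shrink to 0.08 and 0.09 on the right; the Slc2a3 and Slc2a4 probe sets stay widest.

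Among the other SLC5 carriers, 5 of 6 measured genes had a probe set above the line on all 3 arrays, beside 69.6% of all named genes. Slc5a12, a lactate carrier of the early tubule's apical membrane, had signals of 2489, 2236 and 2112 on its brighter probe set. Its other probe set gave 552, 453 and 555, with array 3 highest. Slc5a11, an inositol carrier, gave 1197, 974 and 1111. Slc5a6, which carries the vitamins biotin and pantothenate, gave 463, 328 and 369, and the osmotically controlled inositol carrier Slc5a3 gave 142, 103 and 112 on its brighter probe set and was below the line on every array on the other. The thyroid iodide carrier Slc5a5 passed narrowly, at 17.4, 21.2 and 27.3. The neuronal choline carrier Slc5a7 did not pass, at 1.80, 6.23 and 1.88.

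Of the other SLC2 carriers, 4 of 5 measured genes passed, beside the same 69.6% of all named genes. The fructose carrier Slc2a5 gave 161, 143 and 179, and the urate carrier Slc2a9 82.2, 54.4 and 79.7. The proton-coupled inositol carrier Slc2a13 gave 110.0, 95.5 and 105 on its brighter probe set and 55.0, 43.1 and 54.6 on the other. Slc2a8, an intracellular hexose carrier, gave 105, 132 and 98.4. Slc2a6, at 7.30, 3.87 and 24.3, passed on array 3 alone.

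Partners and regulators of the carriers passed for 6 of 7 measured genes, beside 69.6% of all named genes. Pdzk1ip1, whose product MAP17 is the accessory subunit SGLT2 needs for transport, had signals of 3586, 3101 and 3393 on arrays 1, 2 and 3. The arrays fell in the order of Slc5a2, as for Sgk1 and the brightest probe sets of Atp1b1 and Hnf4a, but not for Pdzk1 or Txnip. The other Atp1b1 probe set was lowest on array 3 (7559, 6548 and 6424), and the other Hnf4a probe sets were highest there. The order of Slc5a2 was found in 48.5% of all probe sets above the line with a mean signal over 1000. Atp1b1, which encodes the beta chain of the sodium pump, had signals of 9947, 8495 and 8938 on its brighter probe set. The brush border scaffold gene Pdzk1 gave 5492, 5311 and 5266. Hnf4a, a nuclear receptor gene of this epithelium, had 3 probe sets, all above the line on all 3 arrays, the brightest with signals of 5888, 5176 and 5400. Sgk1, a kinase gene induced by corticosteroids and cell stress whose product raises carrier activity, was more variable, at 4879, 2630 and 2964 (range 0.89). Txnip, a glucose-responsive inhibitor of glucose uptake, gave 404, 392 and 596 (range 0.66). Trarg1, a partner of GLUT4 in fat and muscle, was below the line on every array, at 0.889, 0.762 and 2.50.

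Enzymes that trap or release glucose passed for 3 of 5 measured genes, beside 69.6% of all named genes. Slc37a4, which brings glucose 6-phosphate into the endoplasmic reticulum for glucose release, gave 5168, 4464 and 4619, and G6pc3, a widely expressed glucose 6-phosphatase, 332, 256 and 345. Hk1, the common hexokinase, gave 73.8, 79.4 and 97.4 on its brighter probe set and was below the line on the other. Hk2, the insulin-induced hexokinase of muscle, gave 16.9, 15.6 and 16.7 and passed on array 1 alone. Gckr, the regulator of liver glucokinase, gave 10.99, 28.4 and 21.9 and fell below the line on array 1.

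**Figure D4:**
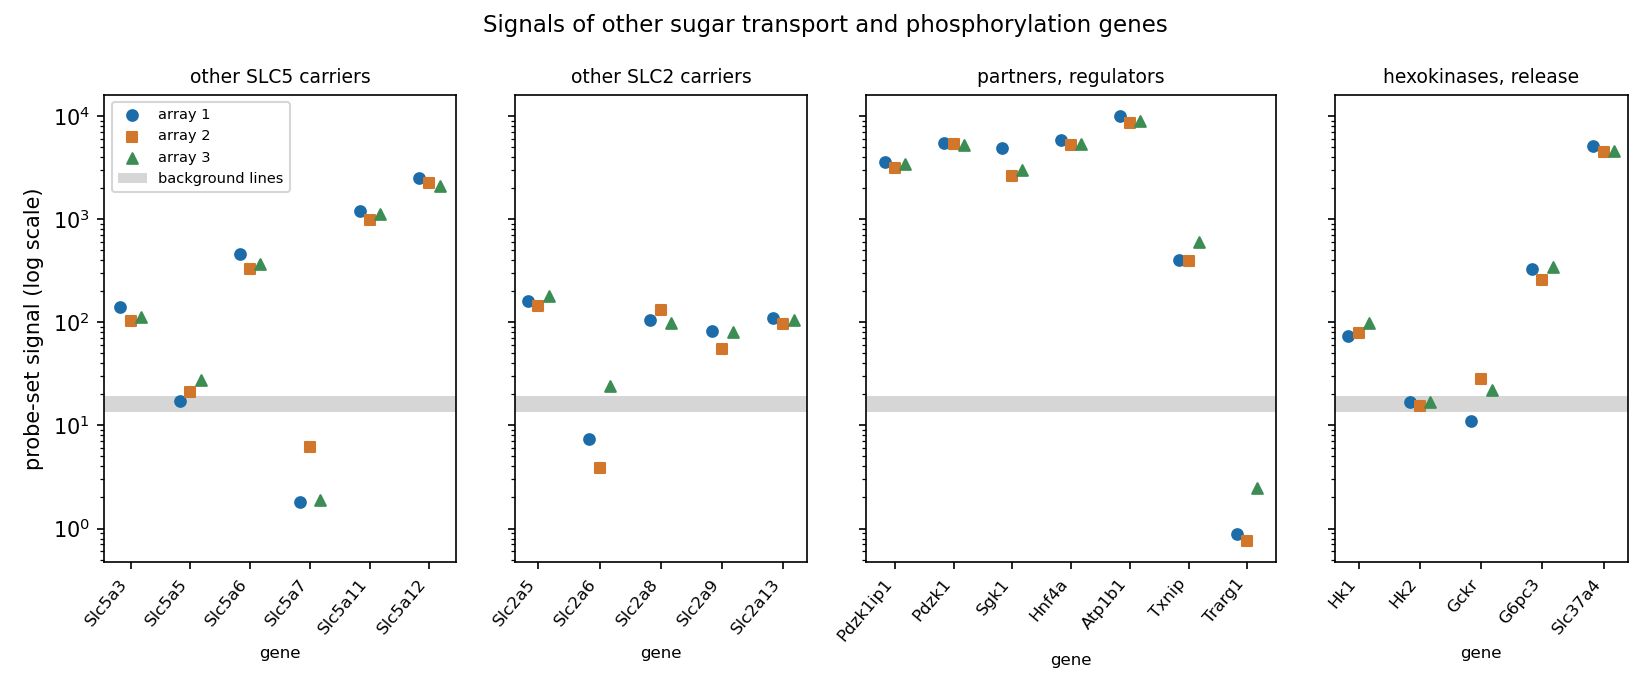
Signals (log axis) of the measured genes in 4 lists, each by its probe set of highest mean signal, on arrays 1, 2 and 3 (points), with the range of the background lines (grey band). Slc5a12 and Pdzk1ip1 stand at 2112 or more on every array, whereas Slc5a7 and Trarg1 lie below the band throughout.

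The labelled tissue was checked against segment markers. All 9 measured early proximal tubule markers passed, and so did 5 of 6 late markers, beside 69.6% of all named genes. The exception was Cyp7b1, at 12.4, 4.24 and 22.1. Summed signals of the late list ran from 7900 to 10502 over the arrays. Slc7a13, a cystine carrier of the late tubule, ranged furthest in that list, at 209, 73.6 and 638 (range 2.94), and was highest on array 3, where Slc5a1 was lowest. Acsm3, another late-segment gene, was highest on array 1, at 3803, 3365 and 2677, and lowest on array 3. Slc22a7, an organic anion carrier gene, gave 28.9, 34.5 and 20.7, highest on array 2 and lowest on array 3 as Slc5a1 was. Its signal on array 3 stood close to the line of 18.7. Slc1a1 (2611, 1859 and 2107 on its brighter probe set) and Ggt1 (3839, 2564 and 3294) were instead lowest on array 2, where Slc5a1 was highest.

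Markers of other cells that can hold these carriers were read against the same line, which 69.6% of all named genes passed. A list count near or below that share does not show the cells to be present. In the thick ascending limb list 5 of 5 markers passed, in the distal convoluted tubule list 2 of 3 and in the collecting duct list 4 of 6, with summed signals of 6295 to 7845, 804 to 1191 and 989 to 1119 over the arrays. Such sums add signals of different genes and do not measure amounts of cells. Umod alone gave 4209 to 5474 of the first sum, and Aqp3 alone 808 to 940 of the last. The principal cell water channel gene Aqp2 passed on array 3 alone (4.25, 4.80 and 32.9). Endothelial markers passed for 4 of 4 genes, with sums of 585, 770.3 and 1041 on arrays 1, 2 and 3, while Slc2a1 was lowest on array 3. The part of these cells in the Slc2a1 signal was not tested. Red blood cell markers passed for 2 of 4 genes, Hbb and Slc4a1 but not Alas2 or Ahsp (sums 124 to 211). Podocyte markers passed for 2 of 4 (150.4 to 193). Nphs1 was below the line on every array, and the brighter Wt1 probe set (13.1, 24.2 and 19.1) passed on arrays 2 and 3 only. Muscle and fat markers passed for 0 of 6 genes, with sums of 56.8 to 63.6, and neuron markers for 0 of 5, with sums of 30.3 to 42.7. White blood cell and platelet markers passed for 2 of 6 (176 to 187). The pan-leukocyte gene Ptprc was not among them, as its brighter probe set (20.9, 17.9 and 27.2) passed on arrays 1 and 3 only.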

How the data were processed

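Gene expression was measured on 3 arrays, 1 for each tubule preparation, named 1 to 3 as in the labels. The authors deposited 1 linear signal intensity per probe set and array, as judged from the values; the summarisation software and the scaling between arrays are not given in the sources used here, so the authors' intensities were used unchanged. Labelling followed Affymetrix protocols, per the labels. Of 31099 probe sets, 57 controls were left out, 20826 named 1 gene, 436 several and 9780 none here. All 6 carrier symbols matched RefSeq's GRCr8 gene table by gene identifier. The number of arrays limits the precision, and the depth of an array has no count.

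With 1 group, no test was made. Signals were set against the background line, and for ranges log2(signal + 16) was centred on array medians. In the listed 99 other pathway and marker genes, 80 were measured. Genes allowed to be named were the carriers, the listed genes and the 2 genes closest in pattern to Slc5a2 and to Slc2a2. Carriers and lists were chosen with earlier results of these data known. A planned comparison of protein sequences was not run. Python 3.11.15, numpy 2.4.6, pandas 2.3.3 and matplotlib 3.10.9 were used.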

Additional observations from a re-analysis of the deposited data

How the results depend on the processing

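Counts of carriers above background changed most with the line. At the 75th percentile of all probe sets, 2 of the 8 carrier probe sets passed, of 2 genes (Slc5a2 and Slc2a2). By definition this line limits the share of all probe sets that can pass, and that share on all 3 arrays was not counted. Of the 80 listed genes, 29 passed it in place of 52 at the main line, which 69.6% of all named genes passed. The 99th percentile of the Olr probe sets, quantile normalization and a line from 41 olfactory, vomeronasal and taste receptor probe sets (chosen after seeing the data, since few probe sets carry an Olr symbol) each left 5 probe sets and 5 genes. With 6 Olr probe sets, the 99th percentile (13.9, 21.3 and 19.2 on arrays 1, 2 and 3) lay close to the main line, so it was a weak check. Leaving out each array in turn gave 5 to 6 probe sets, 5 genes, 53 to 54 listed genes and 0 probe sets with a 2-fold range. Lines and centring were set array by array, so leaving out an array could only keep or raise the counts above the line. It could likewise only keep or narrow the ranges, so these settings could not have overturned those results. An added 1 in place of 16 raised the last count from 0 to 3, all from low signals, which it spreads. An added 64, quantile normalization and no centring left it at 0. The restriction to probe sets above the line did so too, but could not have raised it. Quantile normalization and scaling to the same median moved the mean signal of each of the 8 probe sets by less than 1 SD. Leaving out array 1 lowered the mean of 1387707_at (Slc2a3) from 7.86 to 3.68. No paired analysis was possible because the arrays form 1 group.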
